A study of Drosophila melanogaster with 8 samples.

Results

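The transcripts of male and female wild type Drosophila melanogaster were compared at the white prepupa, the stage at which the larva stops moving and metamorphosis begins. Members were chosen by their titles, which gave 4 of the 8 arrays of the study: 2 wild type males and 2 wild type females, all of the strain w1118. The other 4 arrays held 2 males and 2 females with mutations in both bap170 and bap180, which encode subunits of a chromatin remodelling complex. They are used here as a second pair of sexes, and they also enter the estimate of the spread and the choice of probe sets. All 8 animals were at the same age. Each array carried labelled RNA from a single animal, per the labels' protocols, so replicates are separate animals and every tissue of the animal contributes. In such samples fewer cells of a type and less RNA per cell cannot be told apart.

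Sex in Drosophila is set by Sex lethal (Sxl), which is active in females and directs the splicing of transformer (tra). Tra in turn directs the splicing of doublesex (dsx), whose male and female products control somatic sexual traits, and Sxl blocks the male product msl-2, a subunit of the complex that raises transcription of the single male X chromosome. At this stage the testis already holds germ cells from stem cells to spermatocytes, and spermatocytes transcribe many genes that no other cell uses, under testis-specific regulators such as the tMAC complex and the testis TAFs. The ovary at this stage holds no egg chambers yet, and yolk protein genes are best known for their transcription in adult females.

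Levels are log2 of the deposited intensities, and differences are male minus female with the standard error (SE) from limma, n = 2 animals per sex throughout. A gene was called where the limma p adjusted over all probe sets was under 0.05, and each gene was read on its brightest probe set. Median intensities of the arrays were 34.3 and 34.8 in males and 28.9 and 28.1 in females on the linear scale. Arrays correlated over probe sets at r = 0.985 between males, 0.990 between females and 0.928 to 0.937 between the sexes. The excess of 3' over 5' signal of control transcripts, which grows as RNA is degraded, was higher in both males than in both females for eIF4A (1.24 and 1.44, against 0.78 and 0.97), for Gapdh (1.61 and 1.47, against 1.01 and 1.20) and for the other actin control (0.79 and 0.67, against 0.43 and 0.45). The two-sided exact permutation p was 0.333 for each, the smallest that 2 against 2 animals allow. For Act5C the sexes overlapped (0.43 and 0.67 in males, 0.36 and 0.55 in females, exact permutation p = 0.667). The median of 12 poly-A spike probe sets was 6.94 and 7.48 in males and 8.07 and 7.68 in females. Male 1 also had more ribosomal RNA signal, with 8.40 on the 3' probe set of 18S rRNA against 5.40 in male 2 and 5.72 and 5.77 in the females. The part of these values in the sex differences was not tested.

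Transcripts of 3 genes of the sex determination pathway parted the sexes. On the main probe set of dsx, males measured 3.55 and 3.55, against 7.43 and 7.19 in females. Both males lay far below the array median and both females above it, a difference of -3.76 ± 0.14 (limma adjusted p = 2.44e-05). A dimmer dsx probe set ran the other way, at 5.08 and 5.15 in males and 4.44 and 4.19 in females (0.80 ± 0.17, limma adjusted p = 0.0329). Among 1094 genes with several probe sets, dsx was the 1 gene with probe sets called in both directions. The same opposed pair stood in the double mutants, with differences of -3.66 and 0.85.

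The upstream gene tra was lower in males, at 7.03 and 7.44, against 8.17 and 8.29 in females (-0.99 ± 0.20, limma adjusted p = 0.0263). Its call ended without male 1 (adjusted p = 0.133), without female 1 (0.112) or without female 2 (0.154). In males msl-2 was higher, at 6.17 and 6.39, against 5.39 and 5.22 in females (0.98 ± 0.15, limma adjusted p = 0.00596), and this call ended without female 2 (adjusted p = 0.0605). The animals of each sex did not overlap for either gene. Sxl itself was not called on any of its 3 probe sets. Its brightest set differed by -0.42 ± 0.29 (limma adjusted p = 0.463). The dimmest read 3.34 and 3.46 in males and 4.24 and 4.71 in females, a difference of -1.08 (limma adjusted p = 0.0674). The other members of the dosage compensation complex, msl-1, msl-3, mle and mof, were not called (-0.68 to 0.29). Of 14 measured genes of sex determination and dosage compensation, 1 was higher and 2 were lower in males, where 9.86% of all genes were higher and 1.21% lower.

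No Y-linked gene and no yolk gene was called in wild type. All 7 measured Y-linked genes lay below the array median on all 4 arrays. The largest Y-linked difference was that of ARY, with 3.88 and 4.06 in males and 3.63 and 3.53 in females (0.39 ± 0.13, limma adjusted p = 0.15). ARY passed with a variance trend and with a robust variance trend (lowest limma adjusted p = 0.0368). In double mutants ARY differed by 0.50 and was not called. Yp1 and Yp2 measured between 3.61 and 4.59 in males and females alike. Yp3 was high in 1 animal, with 4.53 and 4.42 in males against 7.42 and 4.70 in females (-1.58 ± 0.73, limma adjusted p = 0.289). Without female 2 its call would pass (adjusted p = 0.000909), and in the double mutants Yp3 differed by -5.88 and was called, with 4.42 and 4.50 in males against 10.38 and 10.30 in females.

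Across the transcriptome 1181 of 11982 genes were higher in males (9.86%) and 145 were lower in males, that is higher in females (1.21%). Counted over 18769 probe sets, 1305 were higher in males (6.95%) and 178 in females (0.948%), and 3726 had an unadjusted p under 0.05. The typical gene was slightly lower in males: the median difference over all genes was -0.16, and 70.8% of genes lay below 0. This shift depends on how arrays are scaled. Centring each array on its median moved the median over probe sets to -0.43, against -0.15 as deposited, and gave 1276 probe sets higher in males and 3964 higher in females. Quantile normalization gave 1324 and 825. Centring on the median deviation of the probe sets from their own means, chosen after seeing the data, gave 1402 and 82 with a median of -0.03. Between these scalings the count towards males moved far less than the count towards females.

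Males and females differed in the size of the called differences as well as their number. Of the genes higher in males 1078 differed at least 2-fold, 652 at least 4-fold, 150 at least 16-fold and 18 at least 64-fold, with a median difference of 2.14. Of the genes higher in females 45 differed at least 2-fold, 5 at least 4-fold and 1, dsx, at least 8-fold, with a median of -0.88. In 978 of the genes higher in males (82.8%) both females lay below the array median, which held for 34.96% of all genes. For genes higher in females, both males lay below it in 30 (20.7%). The share of all genes below it in both males was not counted. Signal this close to the floor compresses differences, so folds of genes dim in 1 sex can be understated. A name made only of a CG number, the mark of a gene without a published name, was carried by 827 of the genes higher in males (70.0%), 62 of those higher in females (42.8%) and 43.6% of all genes.

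**Figure D1:**
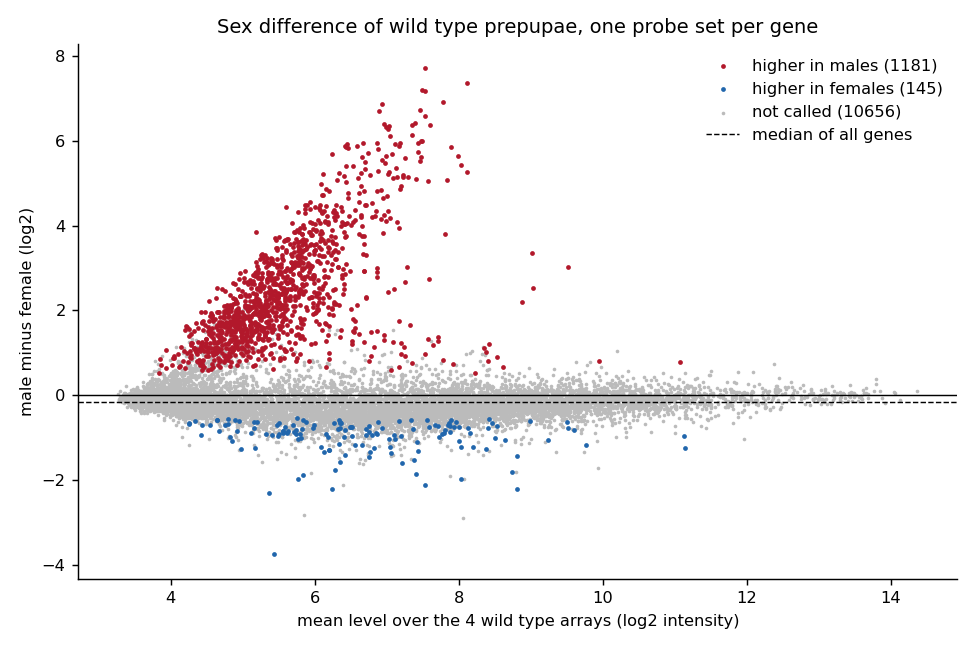
Each point is 1 of 11982 genes, with its mean level over the 4 wild type arrays (log2 intensity) against its male minus female difference (log2). The 1181 genes higher in males (red) reach 7.71, the 145 higher in females (blue) reach -3.76 at dsx, and the dashed line is the median of all genes at -0.16.

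The largest difference was that of CG9920 on 3R, with 11.55 and 11.23 in males and 3.66 and 3.70 in females (7.71 ± 0.22, limma adjusted p = 2.44e-05). The gene ocn, which encodes a testis protein of the janus family, measured 11.22 and 10.95 in males and 3.89 and 3.90 in females (7.19 ± 0.27). TrxT, a thioredoxin gene of the testis on the X chromosome, measured 10.19 and 10.55 in males and 3.47 and 3.52 in females (6.87 ± 0.26). Mst77F, which encodes a linker-histone-like protein of sperm chromatin, had 10.80 and 10.39 in males and 4.17 and 4.18 in females (6.42 ± 0.26). For each of these genes both males were far above the array median and both females below it. The other genes among the 10 largest were CG12699 (7.36), the noncoding lncRNA:CR9284 (7.17), CG31740 (6.91), CG15219 (6.73), CG31988 (6.72) and CG17376 (6.58). All 10 were called in the double mutants too, where their differences ran from 5.09 to 6.99, and TrxT was the only one of them on X.

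**Figure D2:**
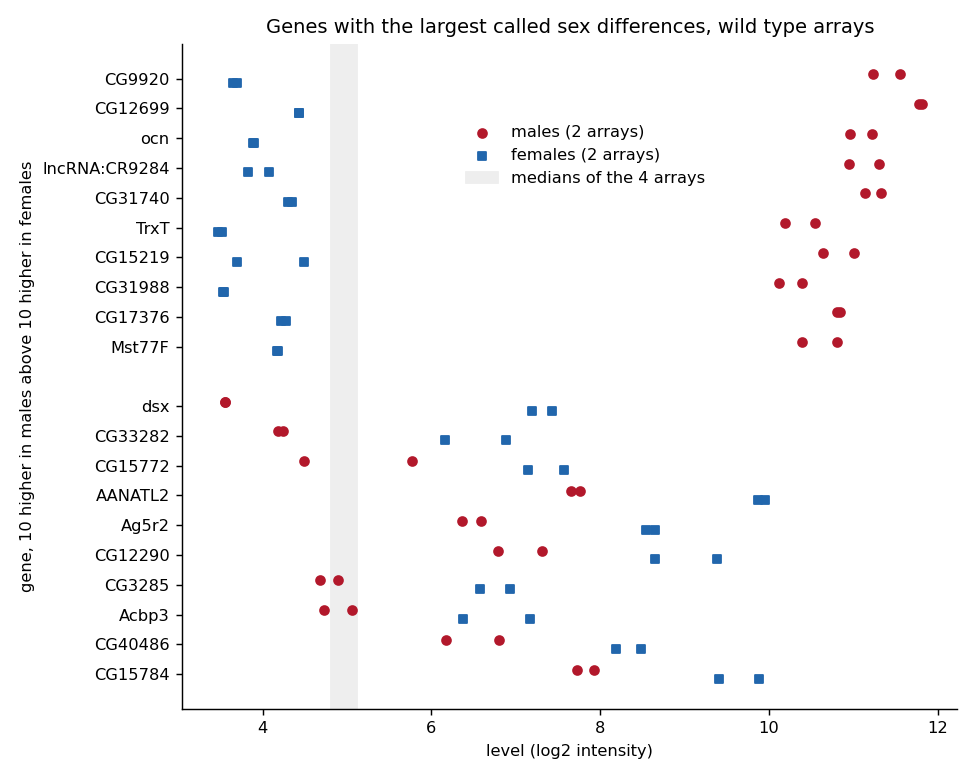
Levels (log2 intensity) on the 4 wild type arrays of the 10 genes with the largest called differences towards males, above, and towards females, below, with males as circles and females as squares. The grey band spans the array medians. In the upper 10 genes both females lie under the band and both males above 10, while in the lower 10 genes other than dsx the sexes lie much closer together.

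The male germline lists are described in the order of sperm development. They held 87 measured genes in all, of which 61 were higher in males and 0 lower, with a median difference of 1.87, against 9.86% higher and a median of -0.16 for all genes. All other lists held 258 genes, of which 4 were higher and 6 lower in males, with a median of -0.18.

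Of 13 measured regulators that switch on the spermatocyte programme, 5 were higher in males, and the median difference was 0.69. The testis TAF gene sa measured 5.52 and 6.98 in males and 3.90 and 4.17 in females (2.21 ± 0.46, limma adjusted p = 0.0296). The homeobox gene vis, a partner of tMAC, measured 5.01 and 5.64 in males and 3.83 and 3.61 in females (1.61 ± 0.23, limma adjusted p = 0.00514). The remaining calls were those of kmg, a zinc finger gene (0.86), topi, a tMAC subunit gene (0.74), and mia, a testis TAF gene (0.63). The tMAC genes aly (0.58), comr (0.38) and tomb (0.69) and the testis TAF genes can (0.43) and nht (1.61 ± 0.42, limma adjusted p = 0.0712) were not called, nor was wuc (1.41). The level of aly stayed below the array median in all 4 animals (3.71 and 4.49 in males, 3.32 and 3.73 in females). The calls of sa, kmg, topi and mia ended in 5 of 20, 10 of 20, 10 of 18 and 14 of 19 alternatives that kept the gene. For kmg, topi and mia they also ended with all 4 wild type animals kept, where arrays were centred on their medians or the wild type arrays were fitted alone. Without female 1 the adjusted p of sa, kmg, topi and mia was 0.171, 0.177, 0.0778 and 0.152, and without female 2 it was 0.119, 0.0873, 0.218 and 0.216. Without male 2 it was 0.0516, 0.0889, 0.122 and 0.143, topi also ended without male 1 (0.14), vis ended without female 2 (0.0531), and nht, tomb and wuc passed without male 1 (0.00921, 0.0326 and 0.0278). Without either double mutant female, which changes only the estimate of the spread, the 4 calls also ended (0.0616, 0.0566, 0.063 and 0.0866), as did that of mia without either double mutant male (0.0733). The list held 1 call without female 1, male 2 or either double mutant female, 0 without female 2 and 7 without male 1, against 5.

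Genes of meiosis and spermatocyte differentiation had differences from 0.28 to 6.37. Of 10 measured, 5 were higher in males, with a median of 1.31. The testis tubulin gene betaTub85D measured 10.98 and 10.59 in males and 4.35 and 4.47 in females (6.37 ± 0.19, limma adjusted p = 2.44e-05). The gene fest, which acts in male meiosis, measured 9.18 and 9.63 in males and 3.38 and 3.60 in females (5.92 ± 0.27). For bol, a regulator of translation at the entry to meiosis, males had 8.87 and 8.04, against 4.13 and 4.04 in females (4.37 ± 0.30). The mitofusin gene of spermatids, fzo (2.02 ± 0.22), and Rbp4, which encodes an RNA-binding protein of spermatocytes (1.89 ± 0.22), were also higher. The Cdc25 phosphatase gene of meiosis, twe, was not called (0.48 ± 0.14, limma adjusted p = 0.104). Nor were mei-S332, ord, tef and SA2 (0.28 to 0.74).

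The genes of spermatids and sperm showed large differences. Of 25 measured, 22 were higher in males and 0 lower, and the median was 3.50. The protamine gene ProtA measured 9.53 and 9.20 in males and 3.50 and 3.48 in females (5.87 ± 0.37, limma adjusted p = 0.000118), and its neighbour ProtB differed by 3.50 ± 0.40. The 4 genes of the Mst84D cluster, which encode proteins of the sperm tail, differed by 5.69 (Mst84Da), 4.83 (Mst84Db), 5.52 (Mst84Dc) and 3.84 (Mst84Dd). Mst98Ca and Mst98Cb, also genes of the sperm tail, differed by 5.26 and 5.25. Mst87F stood out by its level in females, with 10.28 and 10.29 in males and 7.49 and 8.04 in females (2.52 ± 0.27, limma adjusted p = 0.00114).

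The cup genes, which belong to the few known to be transcribed after meiosis, were mixed. Of these w-cup (4.30 ± 0.25), t-cup (2.17 ± 0.43), r-cup (1.08 ± 0.22) and d-cup (0.82 ± 0.13) were higher in males. Their relatives p-cup (0.37 ± 0.21) and s-cup (-0.03 ± 0.20) were not called, and neither was sunz (1.13 ± 0.29, limma adjusted p = 0.0635). Of the other late genes schuy (2.46) and soti (2.85), an inhibitor of protein turnover in spermatids, were higher. The gene dj, which encodes a sperm tail protein, was higher by 1.06 ± 0.25 (limma adjusted p = 0.0474), with males no higher than about the array median (4.62 and 5.13, against 3.93 and 3.69 in females). Without female 1 the calls of d-cup, dj, r-cup and t-cup ended (adjusted p = 0.0551, 0.138, 0.146 and 0.145), as did those of d-cup, dj and t-cup without female 2 (0.0759, 0.223 and 0.0953). Those of r-cup and t-cup ended without male 1 (0.121 and 0.122) or male 2 (0.0745 and 0.0601), that of dj without male 2 (0.153) or either double mutant female (0.0854), and sunz passed without either double mutant male (0.0233).

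Flagellar genes shared with other ciliated cells were mostly uncalled. Of 11 measured axoneme genes, 3 were higher in males, against 9.86% of all genes, with a median of 0.31. The armadillo-repeat gene gudu, needed for spermatids to separate, measured 6.59 and 6.29 in males and 4.16 and 4.24 in females (2.25 ± 0.15, limma adjusted p = 0.000165). The dynein assembly gene tilB, on X, had 5.34 and 6.07 in males and 4.05 and 4.13 in females (1.62 ± 0.28, limma adjusted p = 0.0117), a call that ended without female 1 (adjusted p = 0.086) or female 2 (0.0759). The dynein chain gene Dic61B was higher by 0.67 and lost its call without any 1 of the 8 animals (adjusted p up to 0.235). The dynein heavy chain gene Dnah3 was not called (0.76 ± 0.18, limma adjusted p = 0.0547), but passed in 8 of the 18 alternatives that kept it. Nor were the dynein heavy chain genes Dhc16F, Dhc36C, Dhc62B, Dhc93AB and Dhc98D called (-0.36 to 0.38).

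**Figure D3:**
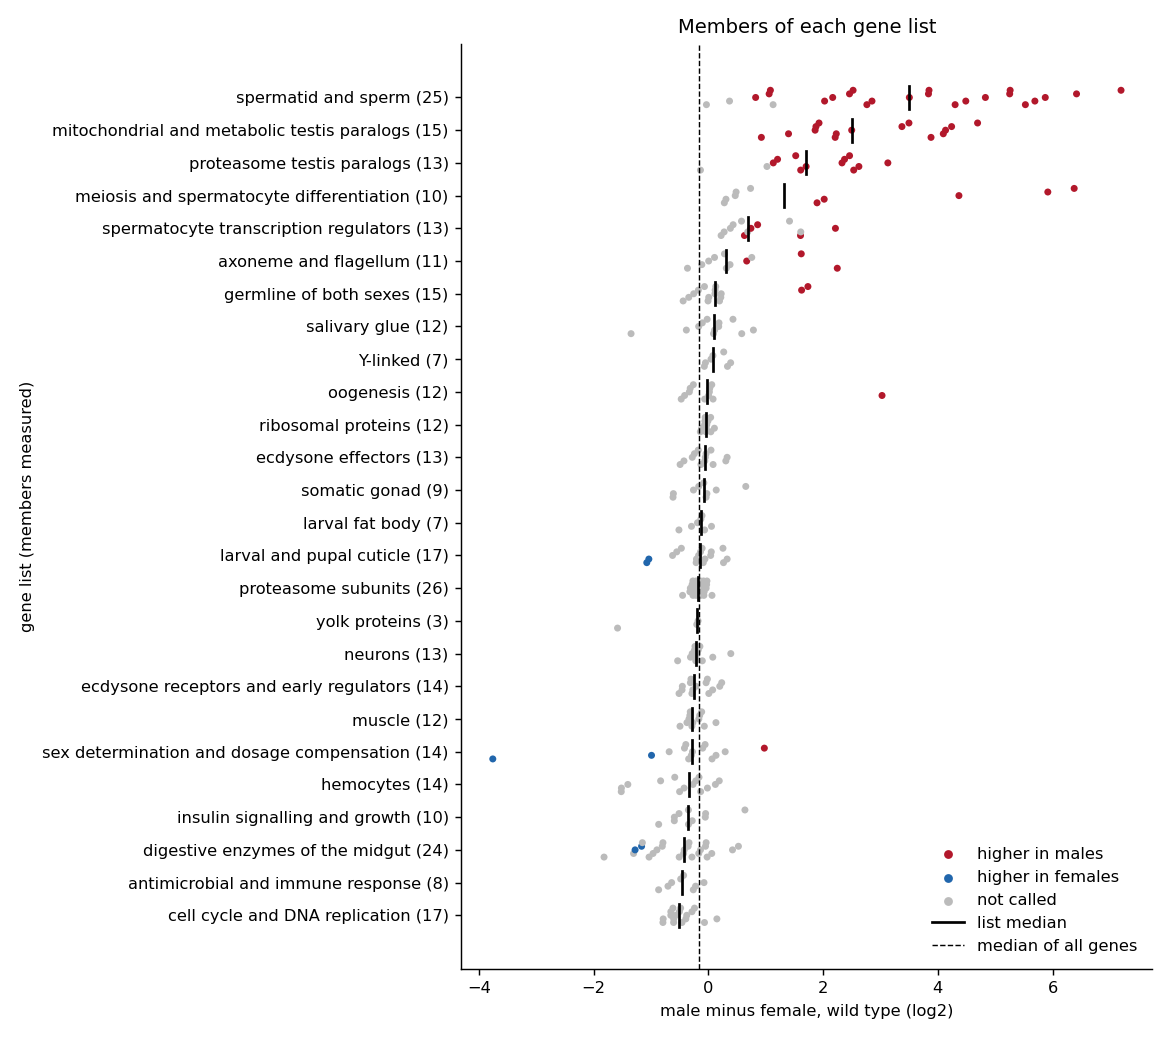
Each point is the male minus female difference (log2) of 1 list member, coloured by its call, with the list median as a bar and the median of all genes (-0.16) as a dashed line. The spermatid list and both lists of testis paralogs lie furthest to the right, with medians of 3.50, 2.50 and 1.70, and most lists of body tissues lie within 0.5 of 0.

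Many testis genes are copies of a gene used in all cells, and both members of such a pair can be read on the same arrays. In 35 pairs both were measured. Of the 35 testis genes 31 were higher in males, with a median difference of 2.23. None of the 30 general genes was called, at differences of -0.50 to 0.29 and a median of -0.14, close to that of all genes. The lowest limma adjusted p among the general genes was 0.266, and 0 of them had an unadjusted p under 0.05. Probe sets of close copies may bind both transcripts, which was not tested.

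The mitochondrial and metabolic copies were called in full, 15 of 15, with a median of 2.50. COX4L, a copy of the cytochrome c oxidase subunit gene COX4, measured 9.49 and 9.20 in males and 4.60 and 4.70 in females (4.69 ± 0.23, limma adjusted p = 4.32e-05), while COX4 differed by -0.12 ± 0.16. The glutamate dehydrogenase copy bb8 differed by 4.13 ± 0.22, against -0.31 ± 0.20 for Gdh. COX7AL (4.24) and COX5BL (4.09), tomboy20 and tomboy40, copies of genes of mitochondrial protein import (3.88 and 2.50), Porin2 (3.37) and the aconitase copy mAcon2 (1.86) stood likewise above general partners that were not called. The smallest difference in the list was that of Pglym87, a phosphoglycerate mutase copy (0.92 ± 0.20). Its call ended without any 1 wild type animal (adjusted p 0.0689 to 0.205) or either double mutant female (0.0576).

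Copies of proteasome genes were higher in males by less. Of 13 measured, 11 were called, with a median of 1.70. Prosbeta2R2, a copy of a catalytic subunit gene, measured 6.73 and 7.77 in males and 4.24 and 4.001 in females (3.13 ± 0.39, limma adjusted p = 0.00239). Prosalpha6T, a copy of Prosalpha6, had 6.68 and 6.95 in males and 4.30 and 4.26 in females (2.53 ± 0.22), while Prosalpha6 itself had 11.16 and 11.50 in males and 11.27 and 11.48 in females (-0.04 ± 0.17). Prosbeta2R1 (1.02 ± 0.25, limma adjusted p = 0.0577) and Prosbeta4R2 (-0.14 ± 0.17) were not called. None of the 26 general proteasome subunit genes was called, with differences of -0.45 to 0.06. The calls of Prosalpha4T1, Prosalpha4T2, Prosbeta5R2 and Rpt4R ended without female 1 (adjusted p 0.0599, 0.0784, 0.0525 and 0.0952) and without female 2 (0.101, 0.105, 0.0729 and 0.0976). That of Prosalpha3T ended without female 2 (0.0714) or male 1 (0.0505), that of Prosalpha4T1 without male 2 (0.0651), and that of Prosalpha4T2 without either male (0.0655 and 0.0637). The list held 7 calls without female 1 and 6 without female 2, against 11.

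Pairs of the translation machinery and of nuclear transport gave the same contrast. The cap-binding gene eIF4E3 measured 9.61 and 10.03 in males and 4.48 and 4.77 in females (5.19 ± 0.30, limma adjusted p = 8.15e-05), against 0.10 ± 0.15 for eIF4E1. Its partner eIF4G2 was bright in both sexes, with 8.84 and 8.98 in males and 7.77 and 7.81 in females (1.12 ± 0.14, limma adjusted p = 0.00219), against -0.02 ± 0.12 for eIF4G1. Ran-like differed by 2.56 ± 0.42 against 0.08 ± 0.14 for the nuclear transport GTPase gene Ran, and Ntf-2r by 1.51 ± 0.28 against -0.25 ± 0.26 for Ntf-2. Both copies lost their call without female 1 (0.051 and 0.109) or female 2 (0.0831 and 0.102), as did Ran-like without male 1 (0.0648) and Ntf-2r without male 2 (0.0719). Of the 35 testis genes 1 lies on X, and of the 30 general genes 9 do, by the arms of a RefSeq table of the Release 6 assembly.

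**Figure D4:**
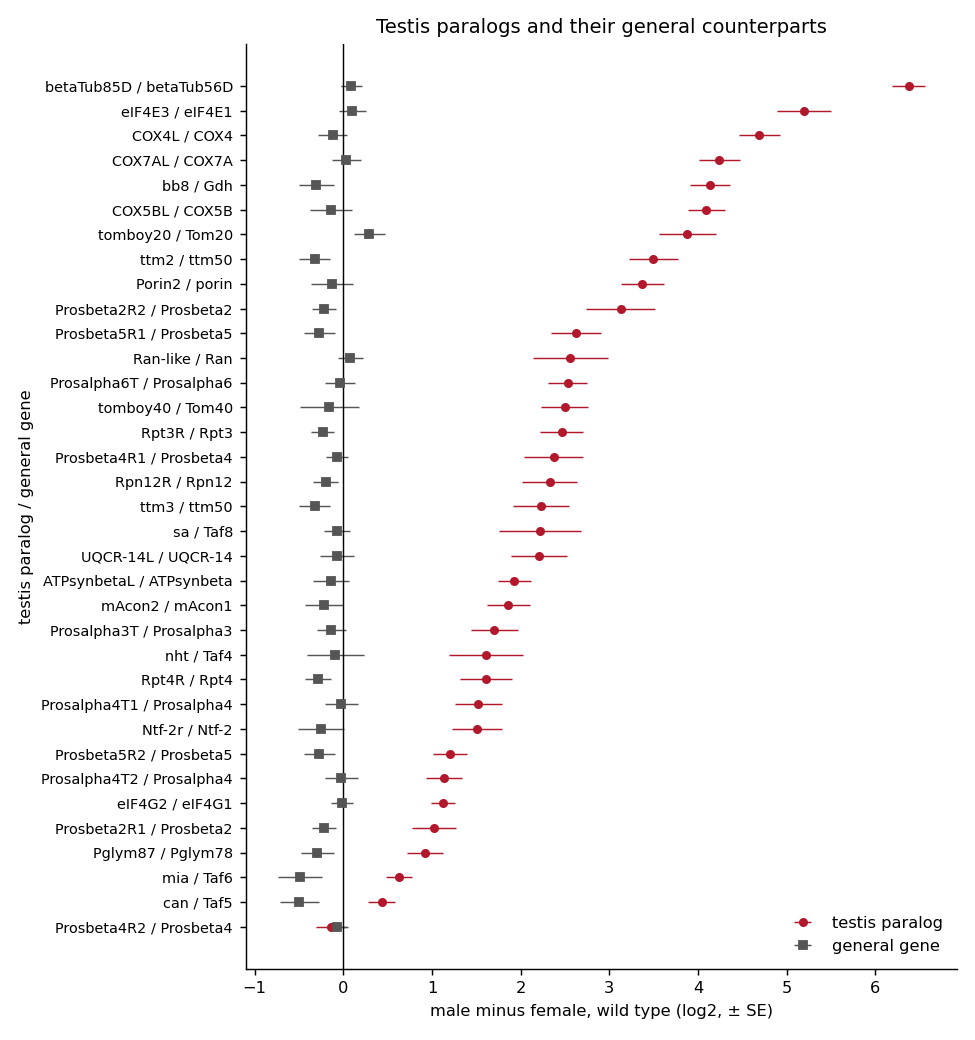
Male minus female difference (log2, ± SE from limma) of each testis paralog (red circles) and its general counterpart (grey squares), 35 pairs ordered by the testis gene. The general genes stay between -0.50 and 0.29, and the testis genes reach 6.37 at betaTub85D.

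Further families, chosen after their values were seen, had members high in males. The 4 measured genes of the sperm leucyl aminopeptidases were all higher, by 6.34 (S-Lap2), 6.14 (S-Lap7), 5.998 (S-Lap8) and 2.32 (S-Lap5). The chaperonin genes Hsp60B (3.31), Hsp60C (5.87) and Hsp60D (1.58) were higher, while Hsp60A, the general member, measured 10.21 and 10.27 in males and 10.57 and 10.05 in females (-0.07 ± 0.20). Of 31 measured vacuolar ATPase subunit genes 9 were higher, against 9.86% of all genes, up to 3.47 for Vha68-3, and the family median was 0.03. That count was 3 without female 1 and 5 without female 2. Both tektin genes, whose proteins line ciliary microtubules, were higher (Tektin-A 2.64, Tektin-C 1.93). The call of Hsp60D ended without female 2 (adjusted p = 0.112).

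Of 15 measured genes of the germline of both sexes, 2 were higher in males, with a median of 0.11. That count is near the 9.86% of all genes, as is that of the oogenesis genes, 1 of 12. The piRNA pathway gene mael measured 5.55 and 6.004 in males and 4.10 and 3.98 in females (1.73 ± 0.18, limma adjusted p = 0.000924). The gene bgcn, which acts with bam to end germ cell proliferation, measured 6.002 and 6.10 in males and 4.30 and 4.55 in females (1.62 ± 0.20, limma adjusted p = 0.00217). The germ cell genes vas (-0.01), piwi (-0.17), bam (0.13) and zpg (0.01) lay between 3.51 and 4.09 on all 4 arrays, below the array medians. The 1 called gene of oogenesis was higher in males: exu, which localises RNA in the oocyte and also acts in the male germline, had 9.14 and 8.46 in males and 5.66 and 5.89 in females (3.03 ± 0.26, limma adjusted p = 0.000412). The median of this list was -0.03, and orb and otu lay between 3.24 and 3.39 on all 4 arrays. None of 9 measured genes of the somatic gonad was called, with a median of -0.08. Among them chinmo, needed for the male identity of testis stem cells, had 4.06 and 5.03 in males and 3.81 and 3.97 in females (0.65 ± 0.38, limma adjusted p = 0.38).

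Outside dsx the 10 largest differences towards females were moderate and belonged to genes of none of the lists. CG33282 measured 4.24 and 4.19 in males and 6.16 and 6.89 in females (-2.31 ± 0.35, limma adjusted p = 0.00589). AANATL2, an arylalkylamine N-acetyltransferase-like gene, had 7.76 and 7.65 in males and 9.95 and 9.87 in females (-2.21 ± 0.32, limma adjusted p = 0.00541). Ag5r2, an antigen 5-related gene on X, had 6.59 and 6.36 in males and 8.54 and 8.64 in females (-2.12 ± 0.31, limma adjusted p = 0.00539). The sexes did not overlap in any of these genes. The remaining genes of the largest 10 were CG15772 (-2.22), CG12290 (-1.97), CG3285 (-1.97), the acyl-CoA-binding gene Acbp3 (-1.88), CG40486 (-1.85) and CG15784 (-1.82), of which CG15772, CG40486 and CG15784 lie on X. The calls of CG15772 and CG3285 ended without female 1 (adjusted p = 0.205 and 0.0938), female 2 (0.117 and 0.154) or male 1 (0.138 and 0.0895), that of CG3285 also without male 2 (0.0982), and that of CG15772 without either double mutant male (0.0503). CG12290 lost its call without female 2 (0.105) or male 2 (0.0763) and Ag5r2 without female 2 (0.0516).

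The set of genes called higher in females changed with each animal left out. The number of probe sets was 63 without male 1, 271 without male 2, 79 without female 1 and 54 without female 2, against 178 in all. Of the 145 genes 30, 66, 36 and 24 kept their call in those 4 settings, and 71 kept it with arrays centred on the median deviation. With all 4 wild type animals and the deposited scaling, 65 of the 145 kept it where the wild type arrays were fitted alone. A variance trend kept 74 and a robust variance trend 83. Of 22 further probe sets of these genes 20 had the same sign and 0 were called in the same direction, while the dimmer one of dsx was called towards males. Of 57 further probe sets of the genes higher in males, 37 had the same sign and 21 were called in the same direction. With the wild type arrays fitted alone, 1091 of the 1181 genes higher in males kept their call. For genes higher in males 812 to 1002 of 1181 kept their call when 1 wild type animal was left out.

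Of 24 measured digestive enzyme genes of the midgut 2 were lower in males and 0 higher, with a median of -0.43, where all genes had 1.21% lower in males, 9.86% higher and a median of -0.16. Differences in the list ran from -1.82 for Jon25Biii, not called, to 0.52, while without female 1 Jon99Fi differed by 1.63. The serine protease gene Jon66Ci measured 9.26 and 9.11 in males and 10.14 and 10.56 in females (-1.16 ± 0.22, limma adjusted p = 0.0194), and iotaTry had 4.30 and 4.38 in males and 6.04 and 5.20 in females (-1.28 ± 0.28, limma adjusted p = 0.0373). Of 17 measured cuticle genes 2 were lower in males, Lcp65Ac (-1.07 ± 0.20, limma adjusted p = 0.0157) and TwdlT (-1.04 ± 0.22, limma adjusted p = 0.0295), with a list median of -0.14. Each of these 4 calls ended with 1 animal left out. Without male 1 the adjusted p was 0.0666 for Jon66Ci, 0.158 for iotaTry, 0.083 for Lcp65Ac and 0.131 for TwdlT. Without female 1 it was 0.133 for iotaTry, 0.121 for Lcp65Ac and 0.119 for TwdlT, without female 2 it was 0.132 for Jon66Ci and 0.164 for TwdlT, and without male 2 it was 0.0853 for Jon66Ci, 0.101 for iotaTry and 0.0585 for Lcp65Ac. The call of iotaTry also ended without any 1 double mutant animal (0.0522 or 0.0555).

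No member was called in the lists of hemocytes (14 measured), fat body (7), muscle (12), neurons (13), salivary glue (12), ecdysone regulators (14), ecdysone effectors (13), ribosomal proteins (12), cell cycle (17), insulin signalling (10) and immune response (8). Animals of 1 sex differed from each other more than the sexes did in several of them. The prophenoloxidase genes of crystal cells were high in 1 female: PPO1 had 6.54 and 6.63 in males and 9.39 and 6.81 in females, and PPO2 had 7.61 and 7.65 in males and 10.10 and 7.96 in females. Without female 2 both would be called (adjusted p = 0.007 for PPO1 and 0.00351 for PPO2). Without either double mutant male the hemocyte and cell cycle lists held 1 call each towards females (Pxn and Cdk4), and without male 2 the cell cycle list held 1 (aurB). NimC1, a receptor gene of plasmatocytes, was low in 1 male, with 7.45 and 4.44 in males against 6.98 and 7.95 in females. In the muscle list the paramyosin gene Prm was higher in male 1 and female 2 than in the other animals (8.81 and 6.64 in males, 7.27 and 8.51 in females).

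Hormone and growth genes were not called. The sexes did not overlap for some of them, but with so few animals per sex this can arise without a sex difference. The share of all genes without overlap was not counted. The ecdysone-induced regulators br, Eip93F and Hr39 differed by 0.07, 0.23 and 0.01, and the nuclear receptor gene Hr4 varied within each sex (6.29 and 7.56 in males, 6.17 and 8.59 in females). The glue gene Sgs8 differed by 0.19 ± 0.17. The larval serum gene Lsp2 differed by 0.05 ± 0.13 and was the 1 of 7 fat body genes above 0, at a list median of -0.13. The cell cycle list had the lowest median of all, -0.51, against -0.03 for the same genes in the double mutants. The median of all genes was -0.16 in wild type and -0.03 in double mutants. Its lowest p belonged to Cdk4, with 6.97 and 7.005 in males and 7.63 and 7.65 in females (-0.65 ± 0.16, limma adjusted p = 0.0565), and the replication gene dpa differed by -0.79 ± 0.33. The insulin-like gene Ilp2 had 4.85 and 5.01 in males and 5.61 and 5.44 in females (-0.59 ± 0.15, limma adjusted p = 0.0641), and the relaxin-like gene Ilp8 had 10.48 and 9.99 in males and 10.97 and 11.24 in females (-0.87 ± 0.29, limma adjusted p = 0.151). Median differences of the brightness classes of all genes ran from -0.09 to -0.31. They were -0.31 and -0.30 in the classes with mean levels of 6 to 7 and 7 to 8. The medians of the cell cycle list on the 4 arrays (6.34 to 7.37) lay in those classes.

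Genes on the X chromosome, of which males carry 1 copy, were lower in males by slightly more than genes on the autosomes. Median differences were -0.23 over 1873 genes on X and -0.14 over 10015 genes on the autosome arms, a gap of -0.09, and -0.13 among genes with a mean level of 8 or more. Relative to each gene's mean over the 4 arrays, X minus autosomes was -0.063 and -0.043 in the males and 0.052 and 0.044 in the females. The animals of each sex did not overlap, and the pooled SD between animals of 1 sex was 0.0109. In the double mutants the gap was -0.08.

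Shares of called genes differed between the chromosome arms. On X 156 genes were higher in males (8.33%) and 56 in females (2.99%), against 1019 (10.2%) and 89 (0.889%) on the autosome arms. On 2L the share higher in males was 12.3%, and on 2R, 3L and 3R it was 9.39%, 9.47% and 9.99%. Of the 65 genes of chromosome 4, 1 was higher in males and 0 in females. X held 38.6% of the genes higher in females and 13.3% of those higher in males, against 15.8% of all genes with an arm. The share of X among genes higher in females was 20.8% without male 1, 27.9% without male 2, 19.4% without female 1 and 22.0% without female 2. It was 28.3% after quantile normalization and 22.7% with arrays centred on their medians.

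**Figure D5:**
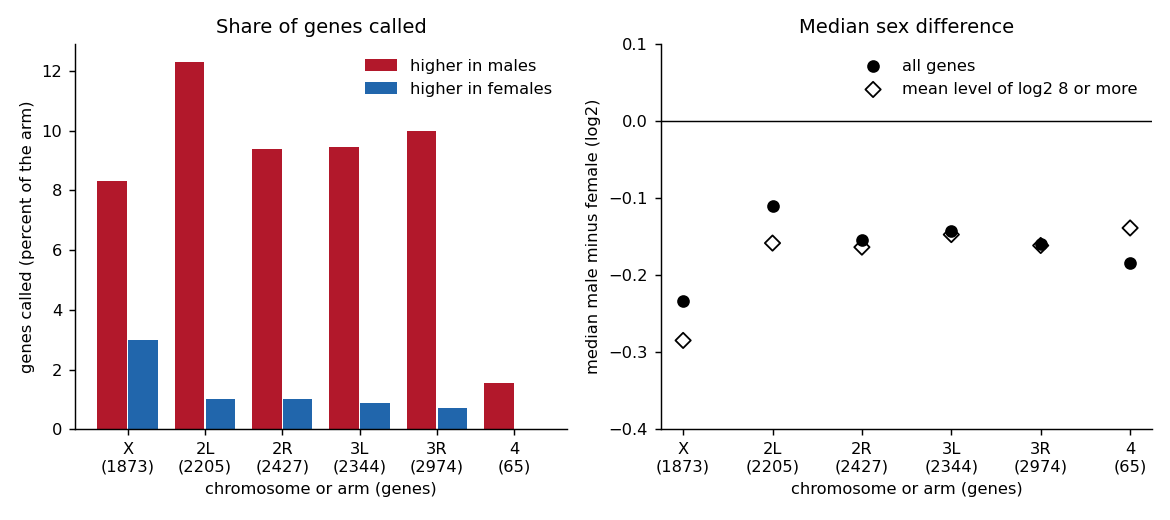
Left, share of the genes of each chromosome or arm called higher in males (red) and in females (blue), in percent, with the number of genes under each name. Right, median male minus female difference (log2) of all genes (filled) and of genes with a mean level of 8 or more (open). X has the highest share of genes higher in females, 2.99%, and the lowest median, -0.23.

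The double mutants gave a second reading of the sex difference in 4 other animals, although all 8 arrays share 1 estimate of the spread. There 956 genes were higher in males (7.98%) and 89 in females (0.743%). Of the 1181 genes higher in wild type males 1173 (99.3%) had the same sign in double mutants, against 46.1% of all genes, and 903 (76.5%) were called. Those 903 genes made up 94.5% of the double mutant calls towards males. The median difference of the 1181 genes was 2.14 in wild type, where they were chosen, and 1.73 in double mutants. Of the 145 genes higher in wild type females 116 (80%) had the same sign, against 53.9% of all genes, and 18 (12.4%) were called, which is 20.2% of the double mutant calls towards females. Their median was -0.88 in wild type and -0.30 in double mutants. Over 11982 genes the wild type and double mutant differences correlated at r = 0.877, a description over genes of the same platform and scaling.

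The 18 genes higher in females of both genotypes included both regulators dsx and tra, and 5 of them lie on X. Their members are named here after their values were seen. At least 2-fold in both genotypes were dsx, Ag5r2 (-2.12 in wild type and -2.06 in double mutants), Acbp3 (-1.88 and -1.26), CG15784 (-1.82 and -1.35), the neuropeptide-like precursor gene Nplp2 (-1.34 and -1.39), Jon66Ci (-1.16 and -1.38) and Lcp65Ac (-1.07 and -1.09). The alkaline phosphatase gene Alp5 measured 6.41 and 6.35 in males and 7.74 and 7.76 in females (-1.37 ± 0.16, limma adjusted p = 0.00196), and -0.93 in double mutants. Hex-C, a hexokinase gene, differed by -0.92 and -1.26, Acbp6 by -1.25 and -0.80, and Irk3, a potassium channel gene, by -0.59 and -0.92. In wild type the calls of Hex-C, Irk3 and Nplp2 ended without male 1 (adjusted p = 0.134, 0.0774 and 0.0644) or female 2 (0.0783, 0.109 and 0.0718). Without female 1 those of Hex-C and Irk3 ended (0.21 and 0.169), without male 2 those of Irk3 and Nplp2 (0.0975 and 0.0536), and without either double mutant female those of Hex-C and Irk3 (0.0675 and 0.0563). That of Hex-C also ended without either double mutant male (0.0525). Single omissions that ended the calls of Ag5r2, Jon66Ci, Lcp65Ac and tra are given with those genes.

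Whether the wild type sex difference itself differed from that of the double mutants was tested as the interaction. No probe set passed (0.0%), with 1184 at an unadjusted p under 0.05 and a lowest limma adjusted p of 0.0917. A variance trend called 5, a robust variance trend 9, and the omission of 1 array 0 to 20, with the 20 found without replicate 2 of the double mutant males. The lowest p was that of CG6296, which did not differ by sex in wild type (3.90 and 3.995 in males, 4.12 and 3.95 in females) and differed by -2.62 in double mutants. Behind it came genes higher in males of wild type. CR11023 had 5.32 and 5.60 in males and 3.48 and 3.52 in females (1.96, against -0.12 in double mutants). The gene of the uracil-DNA degrading factor, Ude, had 5.72 and 5.87 in males and 3.83 and 4.05 in females (1.85, against -0.03). CG4998 differed by 1.12 against -0.34, and CG14974 by 2.78 against 0.80 (adjusted p = 0.154 for each of these 4 interactions in limma). For AANATL2, with -2.21 in wild type and -0.13 in double mutants, the interaction had a limma adjusted p of 0.766.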

How the data were processed

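The deposited values of the authors are intensities on a linear scale, 1 per probe set and array, made with RMA per the submitters' processing notes. This method removes background, aligns arrays and sums up the probes of a set; version and later scaling: not given in the sources used here. Values were taken to log2. Of 18952 probe sets 183 controls were left out, and 18769 were tested. The platform annotation gave 1 symbol for 13647 and several or none for 402 and 4720. Each of 11982 genes was read on its brightest probe set (mean of the 8 arrays), and arms came from a RefSeq table of the Release 6 assembly. No coordinates or sequences are printed.

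The sex difference was a contrast of 4 group means over all 8 arrays in limma 3.58.1 (R 4.3.3; lmFit and eBayes, 4 residual and 3.03 prior degrees of freedom), adjusted by Benjamini-Hochberg over all tested probe sets at 0.05. The double mutant difference and the interaction came from the same fit. Precision is limited by the number of arrays. In simulated data 200 of 18769 probe sets were changed per run. There the wild type contrast found 0.467% of changes sized 0.5 (log2), 44.6% of those sized 1 and 94.2% of those sized 2. Of its calls 4.57% were false. In the deposited data 1305 probe sets were called higher in males and 178 higher in females. The adjusted p depends on how many probe sets change, so these shares hold for the simulated setting only.

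The comparison, the gene lists and the paralog pairs were chosen with earlier results of these data known. The genes followed over the alternatives were set by a rule. They are the 10 largest called differences in each direction, the lowest p of each list (up to 4), the sex genes, the paralog pairs and the 5 lowest interaction p. Not all of them are named here. Other named members were chosen after their values were seen. Alternatives tried were other scalings, minimum levels, variance priors, arrays in the fit, array weights, a replicate block, 1 probe set per gene, a 2-fold threshold and the omission of each array.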

Additional observations from a re-analysis of the deposited data

How the results depend on the processing

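Probe sets higher in males numbered 1305 and stayed between 889 and 1402 in all 21 alternatives, 889 to 1292 of them with 1 array left out; male germline list members called numbered 44 to 64, against 61. Probe sets higher in females numbered 178 and moved to 3964 with arrays centred on their medians, 825 after quantile normalization, 82 with arrays centred on the median deviation (added after seeing the data), 109 with a filter at a mean log2 of 6, 53 at 2-fold or more, and 54 to 271 with 1 array left out. Members of the other lists higher in females, 6 as reported, numbered 48, 12 and 3 under those 3 scalings and 1 to 8 with 1 array left out. The gap between X and autosomes of -0.09 became -0.13 with a filter at the array median, -0.15 with the filter at 6 and -0.12 after quantile normalization, and -0.100 to -0.086 with 1 array left out. The interaction called 0, 5 with a variance trend, 9 with a robust trend, and 0 to 20 with 1 array left out. A lone animal left in a group was assumed to vary like the other groups. Over the alternatives 187 genes were followed. No difference among them that was called, as reported or under an alternative, changed its sign. Uncalled ones did, such as MsrA (-1.29 to 0.31). Of the followed genes 46 of 62 higher in males and 6 of 15 higher in females kept their call in each of 20 alternatives that kept them.

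Replicate numbers were not used to pair animals: the deviations of same-numbered animals correlated at 0.184 between the wild type sexes and at -0.304 to 0.413 between other groups. With the replicate number as a block, 1268 probe sets were higher in males and 185 in females, 59 male germline members were called, 4 and 5 members of the other lists were higher in males and in females, the interaction called 0, and the X gap was -0.09.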
